A study of Lathyrus oleraceus with 6 samples.

Results

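Psat0s301g0160 and Psat0s116g0200 are 2 expansin loci of pea (Pisum sativum L., listed in GEO as Lathyrus oleraceus), out of 44756 loci in the count table. They were chosen by their behaviour in these same libraries: after treatment with an elicitor, Psat0s301g0160 was lower and Psat0s116g0200 was higher. Their levels and fold changes are therefore given as a description, without a test. Psat0s301g0160 matches best to a protein named expansin A10, and Psat0s116g0200 to an expansin-B1-like protein, as annotated in the study's tables. Both identifiers begin with Psat0s, which places them on unassigned scaffolds of the pea genome v1a.

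The 6 RNA-seq libraries came from roots of wild-type seedlings of cultivar Frisson. In the CO8-DA group (n = 3), seedlings that were 4 to 5 days old spent 24 h in 0.5x Jensen's medium with 1e-05 M CO8-DA, which is a mixture of deacetylated chitooligosaccharides. In the control group (n = 3) they spent the same time in the same medium alone. Each replicate was made from 3 to 4 plants, by the study's methods. The estimated counts summed to between 12315774 and 19534336 per library. Levels are given in CPM, the usual counts relative to library size, with the library sizes scaled by edgeR's TMM method. For changes, the 21293 loci kept by filterByExpr, the low-count filter of edgeR, were fitted with its quasi-likelihood model, and a locus was called at a Benjamini-Hochberg adjusted p under 0.05 where the log2 fold change was 1 or more in size. By this rule 3.13% of the tested loci were called, 2.63% being higher and 0.493% lower after CO8-DA. The root label was not checked against marker genes here.

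Expansins are small secreted proteins that loosen the plant cell wall without cutting its polymers. They act between cellulose microfibrils and the matrix polysaccharides around them, and are best known for letting walls extend during acid growth. The α-expansins (named A) include members that act in root hair outgrowth in Arabidopsis. The β-expansins (named B) are related to the group of grass pollen allergens that soften the walls of the stigma and style. In the study's annotation both loci carry the paired domains of this family. The text for Psat0s301g0160 also names root hair elongation, and that for Psat0s116g0200 names sexual reproduction.

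The α-expansin locus Psat0s301g0160 was low in CO8-DA roots, and close to no reads in replicates 2 and 3. Its counts were 26, 1 and 2 in CO8-DA replicates 1, 2 and 3, against 76, 318 and 164 in control replicates 1, 2 and 3. On the CPM scale these were 2.03, 0.0628 and 0.102 in CO8-DA roots, against 5.15, 25.9 and 11.7 in control roots. Every CO8-DA library lay below every control library, and CO8-DA replicate 1 was the one nearest to them. Groups without overlap were found at 25.4% of the tested loci, with CO8-DA below control at 11.7%. The mean level was 0.731 ± 1.12 CPM in CO8-DA roots and 14.3 ± 10.6 CPM in control roots (SD, n = 3 each), a fitted log2 fold change of -4.45 (standard error, SE, 1.00). This was the 7th lowest of the 21293 fitted values. In bulk roots, fewer cells that express the locus and less transcript per cell cannot be told apart.

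**Figure D1:**
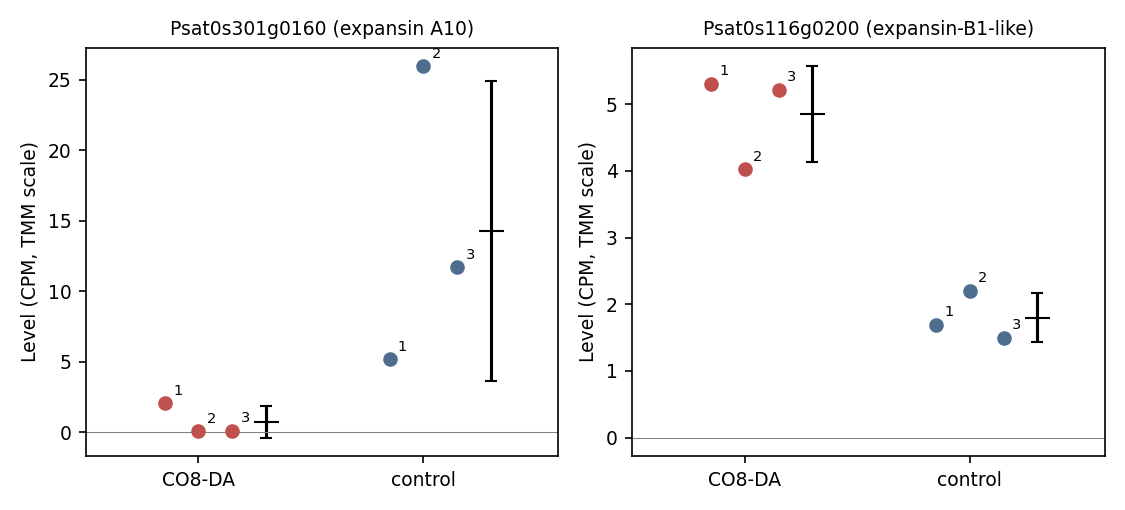
Levels of Psat0s301g0160 (left) and Psat0s116g0200 (right) in CPM on the TMM scale, with 1 point per library numbered by replicate, and the mean ± SD of each group beside it (n = 3). For Psat0s301g0160 the CO8-DA points lie at 0.0628 to 2.03 and the control points at 5.15 to 25.9, and for Psat0s116g0200 the CO8-DA points lie at 4.02 to 5.31, above all control points.

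Replicates of one group differed widely at this locus. The highest CPM was 32.3 times the lowest among the CO8-DA libraries and 5.03 times the lowest among the control libraries. On the log2 CPM scale the SD was 1.92 in CO8-DA roots and 1.15 in control roots, while the median SD of 3091 loci of like average level was 0.204 and 0.243. Of those loci, 99.8% varied less than Psat0s301g0160 in the CO8-DA group and 97.9% varied less in the control group. Since the groups did not overlap, leaving out a single library could not reverse the direction, and the kept direction is no test of it. The log2 fold change then ran from -7.26 to -3.69.

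CO8-DA replicate 1 held 89.7% of the counts of Psat0s301g0160 in its group. Over the group 29 counts in CO8-DA roots stood against 558 in control roots, a level 22.7 times higher in control (exact conditional 95% interval 15.6 to 34.1). Without CO8-DA replicate 1 only 3 counts in CO8-DA roots were left, and the ratio of control to CO8-DA was 161 (54.8 to 782). Set against CO8-DA replicate 1 alone, the control level was 6.71 times higher (4.53 to 10.4). Without control replicate 2, which held 57.0% of the control counts, the ratio was 13.9 (9.43 to 21.2). Such intervals come from counts pooled over libraries, so they hold counting error alone and leave out the spread between replicates. The fitted log2 fold change, which includes that spread, had an SE of 1.00. The intervals also make no allowance for the choice of this locus by the same contrast, and are no test of it. No molecular identifiers are described. Why CO8-DA replicate 1 and control replicate 2 stood apart here was not tested. The estimated counts of Psat0s301g0160 were whole in all 6 libraries.

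The β-expansin locus Psat0s116g0200 went the other way, with close replicates. Its estimated counts were 68, 64 and 101.67 in CO8-DA replicates 1, 2 and 3, against 24.58, 26.52 and 20.63 in control replicates 1, 2 and 3. In CPM it stood at 5.31, 4.02 and 5.22 in CO8-DA roots, against 1.70, 2.20 and 1.50 in control roots, so the groups did not overlap. CO8-DA lay above control without overlap at 13.7% of the tested loci. The mean was 4.85 ± 0.718 CPM in CO8-DA roots and 1.80 ± 0.363 CPM in control roots (SD, n = 3 each), a log2 fold change of 1.43 (SE 0.24), or 2.70-fold. The SD of log2 CPM was 0.218 in CO8-DA roots and 0.264 in control roots, near the median of 0.261 and 0.322 for 2447 loci of like level. With any one library left out its log2 fold change stayed between 1.32 and 1.59.

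The reads of Psat0s116g0200 were divided with a neighbouring locus, and the division differed between the groups. RSEM, the program behind the counts, splits a read that fits several loci between them, which leaves estimates that are not whole. At Psat0s116g0200 the estimate was not whole in 4 of the 6 libraries, and the same 4 libraries had such estimates at the next locus on the scaffold, Psat0s116g0240. That locus is described as a pentatricopeptide repeat protein, a family that binds organelle RNA, and not as an expansin. It held 0, 0 and 2.33 estimated counts in CO8-DA roots, against 20.42, 15.48 and 7.37 in control roots. In each library both estimates added up to a whole number (within 0.02), namely 68, 64 and 104 in CO8-DA roots, against 45, 42 and 28 in control roots. Of these joint reads, 100%, 100% and 97.8% were assigned to Psat0s116g0200 in CO8-DA roots, against 54.6%, 63.1% and 73.7% in control roots.

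**Figure D2:**
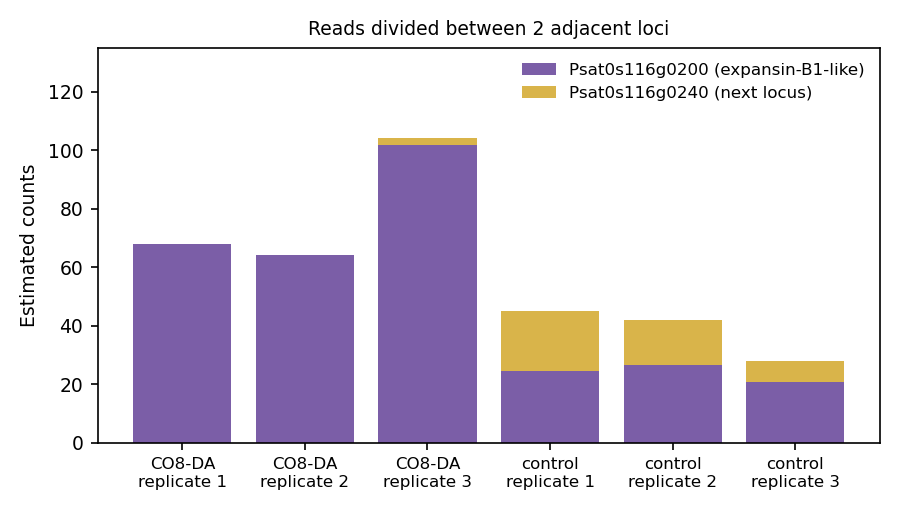
Estimated counts of Psat0s116g0200 (lower part of each bar) and of the adjacent Psat0s116g0240 (upper part) in each library. The full bars stand at 68, 64 and 104 in CO8-DA roots and at 45, 42 and 28 in control roots, and the upper part is at 0, 0 and 2.33 in CO8-DA roots.

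Taken as one locus, the pair had 236 counts in CO8-DA roots and 115 in control roots. The joint level was 4.88 ± 0.746 CPM in CO8-DA roots and 2.83 ± 0.739 CPM in control roots (SD, n = 3 each), with no overlap between the groups. The log2 fold change of the joined locus was 0.79 (SE 0.26), or 1.73-fold, and it lay between 0.60 and 0.94 with any one library left out. The fold change of Psat0s116g0200 alone was thus 1.56 times that of the joined reads. Which reads belong to which locus cannot be told from the estimates. DESeq2, run without edgeR's filter on low counts, called Psat0s116g0240 lower. The libraries were made with a kit that keeps strand, and whether counting used strand is not given in the sources used here.

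No other tested locus on the same scaffolds was called. Of the 9 further loci with identifiers on either scaffold, 6 had no count in any library. On the scaffold of Psat0s301g0160 no other locus had a count. Beside Psat0s116g0200, Psat0s116g0160 had 145, 143 and 213 counts in CO8-DA roots, against 163, 127 and 147 in control roots, a log2 fold change of -0.03 (SE 0.15, adjusted p = 0.927 in edgeR). Psat0s116g0280 had 629, 660 and 1253 counts in CO8-DA roots, against 672, 690 and 809 in control roots, a log2 fold change of -0.04 (SE 0.17, adjusted p = 0.919 in edgeR). At both, the CPM values of the groups overlapped.

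A further 4 loci are described as expansins in the study's tables at hand, and none of them had estimates that were not whole. This list is not independent of the comparison, because the first table holds changed genes only and the second was shortened mainly to large increases. One of the 4 was called, beside 3.13% of all tested loci, and none was called lower (1 was lower at an unadjusted p under 0.05, and DESeq2 called it). The median log2 fold change was 1.03, against -0.01 over all tested loci.

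Psat3g015800, described as an expansin-A1-like protein, rose after CO8-DA. It had 495, 841 and 852 counts in CO8-DA roots, against 329, 294 and 258 in control roots. The level was 45.0 ± 7.21 CPM in CO8-DA roots and 21.6 ± 2.85 CPM in control roots (SD, n = 3 each), a log2 fold change of 1.06 (SE 0.15, adjusted p = 0.00873 in edgeR). Its fold change lay near the threshold, so without CO8-DA replicate 2 or control replicate 3 it was no longer called, at log2 fold changes down to 0.93 (edgeR adjusted p of at most 0.0353 with any one library left out).

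The remaining loci were not called. Psat5g150120, described only as an expansin, had 295, 623 and 537 counts in CO8-DA roots, against 296, 169 and 153 in control roots, a log2 fold change of 1.00 (SE 0.26, adjusted p = 0.0846 in edgeR). Psat4g135360, matched to expansin-A12, had 18, 39 and 24 counts in CO8-DA roots, against 15, 1 and 2 in control roots, a log2 fold change of 1.96 (SE 0.72, adjusted p = 0.195 in edgeR). Both were called higher without control replicate 1 (edgeR adjusted p = 0.0223 for Psat5g150120 and 0.0171 for Psat4g135360, and up to 0.258 and 0.465 without another library). That library had the highest control level of each.

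Psat2g175880 is the second locus described as expansin-B1-like, and its values lay on the opposite side to Psat0s116g0200. It had 15, 30 and 12 counts in CO8-DA roots, against 34, 46 and 64 in control roots. The level was 1.22 ± 0.637 CPM in CO8-DA roots and 3.54 ± 1.15 CPM in control roots (SD, n = 3 each), a log2 fold change of -1.54 (SE 0.44, adjusted p = 0.104 in edgeR). No CO8-DA library reached the lowest control library, yet the difference did not pass the correction. DESeq2 called this locus lower, which restates its choice, as it came from the study's table of changed genes, made with DESeq2 on these libraries. With 1 library left out, edgeR called it without control replicate 1 (edgeR adjusted p = 0.0490) and not without any other (up to 0.301). Positive and negative values thus occurred among loci named A and among loci named B.

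**Figure D3:**
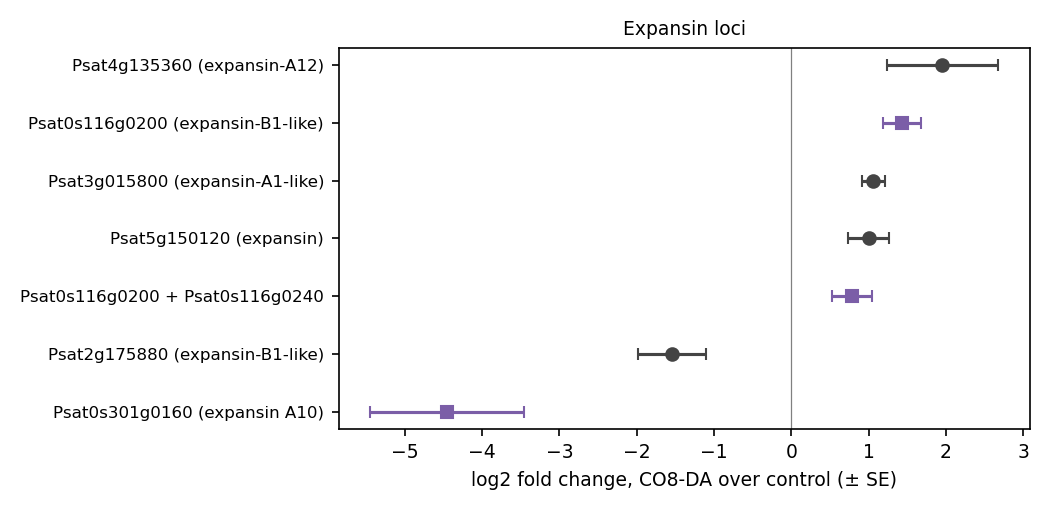
Fitted log2 fold change of CO8-DA over control (± standard error, 3 libraries per group) for the loci described as expansins. Squares mark Psat0s301g0160, Psat0s116g0200 and Psat0s116g0200 joined with Psat0s116g0240, and circles mark the other 4 loci. The values run from -4.45 at Psat0s301g0160 to 1.96 at Psat4g135360.

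The pattern of Psat0s301g0160 over the libraries was shared by other loci. Likeness was measured as Pearson's r of log2 CPM over the 6 libraries, among 18644 other loci whose average log2 CPM was 1 or more. The points share library and group, so r is a description. The median r was 0.01, and 18 loci reached 0.98, while 31 loci reached it with Psat0s116g0200. The 5 most alike were Psat2g051720 (r = 0.996), Psat0s4599g0080 (r = 0.995), Psat7g209920 (r = 0.994), Psat4g143520 (r = 0.994) and Psat4g002080 (r = 0.991).

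Psat4g002080 is described as a peroxidase, a family that acts on wall phenolics and reactive oxygen. It stood at 1.17, 0.188 and 0.102 CPM in CO8-DA roots, against 3.73, 19.4 and 8.64 CPM in control roots. Its log2 fold change was -4.58 (SE 0.87, adjusted p = 0.0258 in edgeR), near that of the expansin locus. Psat0s4599g0080, an uncharacterized protein, was also called lower, with a log2 fold change of -3.43 (SE 0.76, adjusted p = 0.0467 in edgeR). Both calls were lost without CO8-DA replicate 2 or 3 or control replicate 2 or 3 (edgeR adjusted p up to 0.121 and 0.178). With all libraries kept, limma-voom called neither, and Psat0s4599g0080 was also not called with robust estimation or with a block by title number. Psat4g143520, at -3.58, was not called (edgeR adjusted p = 0.0775), but it was called without CO8-DA replicate 1, without control replicate 1 and with no filter on low counts. Psat2g051720 and Psat7g209920 kept the shape of the pattern at a far smaller size, with log2 fold changes of -0.48 and -0.33 (edgeR adjusted p = 0.119 and 0.315).

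**Figure D4:**
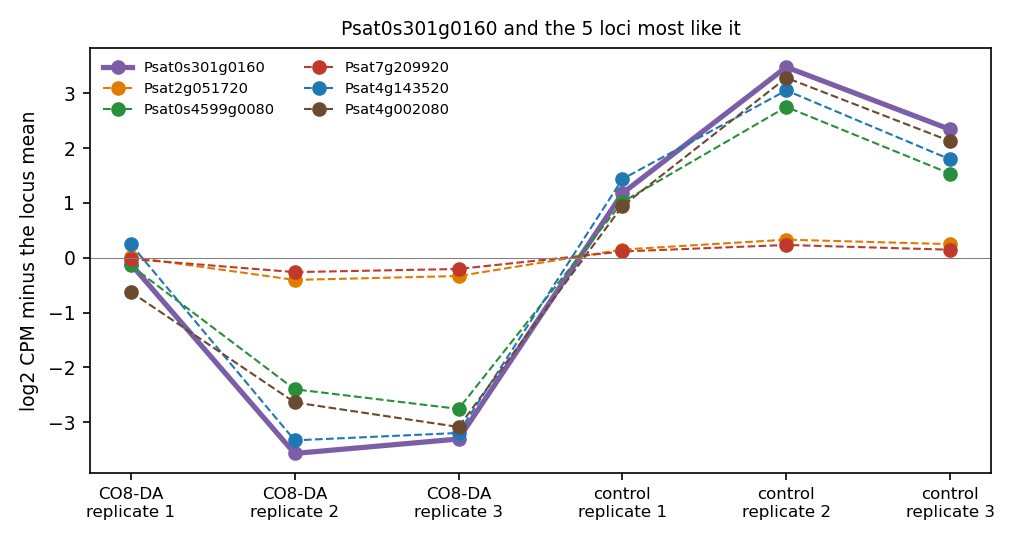
Log2 CPM of Psat0s301g0160 (thick line) and of the 5 loci most like it, as the distance from each locus's mean over the 6 libraries; lines only join the points of a locus. In every line control replicate 2 is the highest and CO8-DA replicate 1 the highest of the CO8-DA libraries.

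At Psat0s301g0160 control replicate 2 lay above replicate 3 and that above replicate 1, and CO8-DA replicate 1 was the highest of its group. The 5 loci share this order, which their choice by r favours. Both features together were found at 22 of the 104 other loci called lower (21.2%), at 6 of the 561 loci called higher (1.07%), and at 914 of the 21293 tested loci (4.29%).

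The loci most like Psat0s116g0200 were Psat3g183680 (r = 0.993), Psat1g030920 (r = 0.991), Psat2g006960 (r = 0.991), Psat0s3984g0040 (r = 0.991) and Psat5g061800 (r = 0.990), and the tables at hand do not describe them. Their log2 fold changes were smaller than its own, between 0.27 and 0.71, and none was called (edgeR adjusted p of at least 0.0730). For the 2 expansin loci between themselves r was -0.76 over the 6 libraries. This value includes the difference between the groups, and the choice of the loci for opposite directions favours a negative r.

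Expansins work on a wall that other enzymes build and modify, so further wall loci were taken from the study's table of changed genes. That table was made from these libraries, and the counts below are no independent evidence of direction. The table was made with DESeq2, so calls by DESeq2 here restate the choice of the lists, and calls by edgeR are favoured by it. Of 9 loci for pectin modification, 8 were tested, 2 were called higher and 1 lower, beside 2.63% and 0.493% of all tested loci. The median log2 fold change was -1.13, against -0.01 over all tested loci. DESeq2 called 3 of the 9 higher and 6 lower. Psat5g227240 and Psat0s1683g0120, described as pectinesterase/pectinesterase inhibitor, enzymes that remove methyl groups from pectin, rose by 2.78 and 1.97 on the log2 scale (SE 0.37 and 0.22, adjusted p = 0.00623 and 0.00323 in edgeR). In CPM Psat5g227240 stood at 16.9, 22.7 and 19.1 in CO8-DA roots, against 3.73, 1.06 and 3.64 in control roots. Psat5g227800, described as an invertase or pectin methylesterase inhibitor, had 7, 2 and 7 counts in CO8-DA roots, against 32, 74 and 40 in control roots. Its log2 fold change was -3.42 (SE 0.58, adjusted p = 0.0164 in edgeR), a call lost without CO8-DA replicate 2 or 3 (edgeR adjusted p up to 0.0745).

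Of 6 loci for glucans and xyloglucan, 5 were tested, 4 were called higher and none lower, beside the same 2.63% and 0.493%. The median log2 fold change was 2.26. DESeq2 called 1 lower, the xyloglucan galactosyltransferase locus Psat2g182080, which did not pass edgeR's filter and is named here after its values were seen. Its counts were 4, 3 and 0 in CO8-DA roots, against 16, 47 and 5 in control roots. All 5 tested loci had positive log2 fold changes. Psat7g179600 is described as glucan endo-1, a text that does not state a role in the wall. It stood at 17.5, 15.6 and 17.8 CPM in CO8-DA roots, against 2.51, 1.39 and 1.29 CPM in control roots. Its log2 fold change was 3.28 (SE 0.25, adjusted p = 0.000625 in edgeR). A further locus with this description, Psat7g179640, rose by 1.08, a call that did not hold when any one CO8-DA library or control replicate 2 or 3 was left out (edgeR adjusted p up to 0.137). The cellulose synthase-like loci Psat6g132440 and Psat2g139080 rose by 3.11 and 2.21 on the log2 scale (edgeR adjusted p = 0.0123 and 0.000646). The call of Psat6g132440 was lost without CO8-DA replicate 2 or 3 (edgeR adjusted p up to 0.0536). Psat2g139080 also carries root hair in its text.

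Psat0s301g0160 carries the annotation of root hair elongation, and 14 further loci of that table carry root hair or trichoblast in their text, 3 of them already counted in the pectin and glucan lists. Of the 13 tested, 8 were called higher and 2 lower, again beside 2.63% and 0.493% of all tested loci, and the median of their log2 fold changes was 1.23. DESeq2 called 9 of the 14 higher and 5 lower. Higher were for instance Psat3g176000, a putative calcium-binding protein, by 2.84, and the ABC transporter locus Psat4g021240 by 2.52 (edgeR adjusted p = 0.00929 and 0.00259). Of the called loci the smallest rise was 1.01, at the ABC transporter locus Psat6g159040, a call that failed on leaving out any one CO8-DA library or control replicate 2 or 3 (edgeR adjusted p up to 0.0914). The higher calls of Psat3g180640 and Psat4g014160 failed without the same libraries (edgeR adjusted p up to 0.144 and 0.160), and also with robust estimation. Psat4g014160 is named after its values were seen. The estimates of Psat6g159040 were not whole in 5 libraries. Those of Psat4g021240 were not whole in any of the 6, and neither were those of Psat0s6741g0040, a further ABC transporter locus of the list that was called higher. In every library the estimates of Psat4g021240 and Psat0s6741g0040 added up to a whole number, for instance 992.69 and 281.31 in CO8-DA replicate 1, and 92.51 and 39.49 in control replicate 2. Some reads were thus divided between these 2 of the 8 higher calls, and how many cannot be told from the estimates. Psat0s6741g0040 was named after its values were seen.

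Lower calls by edgeR in this list were Psat5g005920 and Psat4g046200. Psat5g005920, matched to a phosphatidylinositol transfer protein of a family that acts in tip growth of root hairs in Arabidopsis, stood at 12.8, 7.98 and 6.91 CPM in CO8-DA roots, against 26.9, 49.4 and 39.7 CPM in control roots. Its log2 fold change was -2.08 (SE 0.29, adjusted p = 0.00769 in edgeR), and r with Psat0s301g0160 was 0.977. Psat4g046200, described as an adenine nucleotide alpha hydrolase, had a log2 fold change of -1.72 (SE 0.33, adjusted p = 0.0272 in edgeR) and r = 0.940, and it was no longer called when any one CO8-DA library or control replicate 3 was left out (edgeR adjusted p up to 0.118). Psat5g226960, a pectinesterase locus with trichoblast differentiation in its text, was picked out after its values were seen. It stood at 3.98, 0.942 and 0.409 CPM in CO8-DA roots, against 7.66, 27.8 and 11.6 CPM in control roots, with r = 0.983. Its log2 fold change of -3.23 did not pass the correction (SE 0.77, adjusted p = 0.0620 in edgeR). Psat5g226960 was called lower without CO8-DA replicate 1 or control replicate 1, by DESeq2 and with no filter on low counts. At the loci of this list called higher, r with Psat0s301g0160 was negative, between -0.918 (Psat0s6741g0040) and -0.771 (Psat3g180640). These values of r include the difference between the groups.

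**Figure D5:**
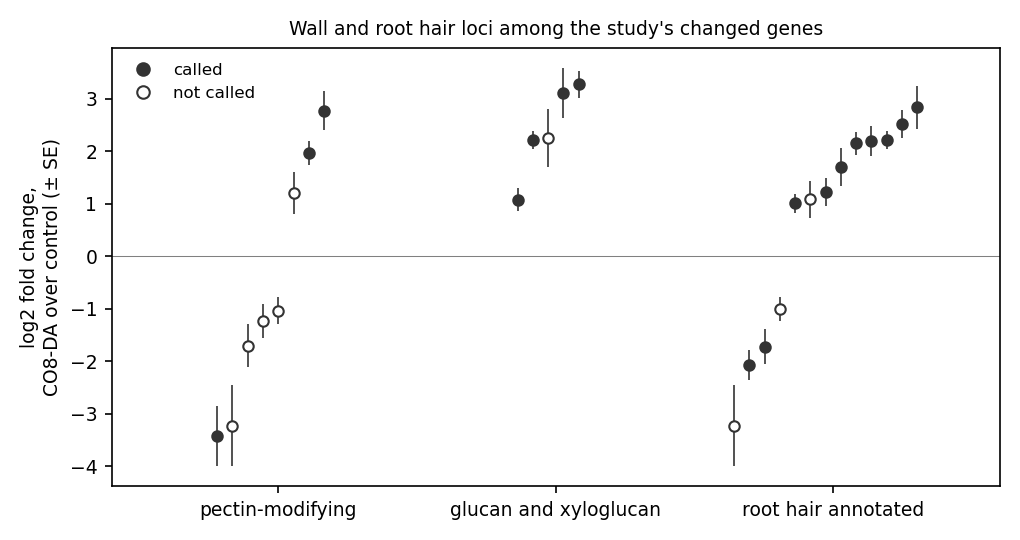
Log2 fold change of CO8-DA over control (± standard error) for each tested locus of the pectin, glucan and root hair lists, filled where called. Called loci lie on both sides of 0 among the pectin and root hair loci, and the 5 glucan loci lie between 1.08 and 3.28.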

How the data were processed

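The authors trimmed paired-end reads with Trimmomatic 0.39, then used RSEM 1.3.1 with Bowtie2 2.4.4 and the pea genome v1a to estimate counts per gene (versions from the submitters' processing notes). The deposited values are these estimated counts from the authors, without normalization. They were rounded and fitted in R 4.3.3 with edgeR 4.0.16 (filterByExpr, TMM, glmQLFit, glmQLFTest, two-sided), and every edgeR adjusted p is Benjamini-Hochberg adjusted over all 21293 tested loci. Standard errors are the log2 fold change divided by the root of F. Log2 CPM used a prior count of 2. An estimate at least 0.005 from a whole number was read as divided. Replicates are biological, per the study's methods. Group and replicate came from the sample titles.

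The members and lists were chosen with earlier results of these data known. Named are the members, other expansins, scaffold neighbours with counts, the 3 highest and 3 lowest called loci of each list, and the 5 loci most like each member. Alternatives were DESeq2 1.42.0, limma-voom (limma 3.58.1), other scalings, filters and thresholds, unrounded counts, blocks, and each library left out. The fits were tested on simulated data. Library pairs of a group differed beyond counting noise (chi-square over its degrees of freedom 12.4 or more). Gene descriptions come from the study's tables, whose fold changes and p-values, made with DESeq2, were not used.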

Additional observations from a re-analysis of the deposited data

How the results depend on the processing

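The log2 fold changes of Psat0s301g0160 and Psat0s116g0200 kept their sign under every alternative run. Both loci were chosen by this contrast and their groups did not overlap, so the kept sign is no test of direction. With all libraries kept, Psat0s301g0160 lay between -5.43 (limma-voom) and -4.30 (DESeq2) and Psat0s116g0200 between 1.42 and 1.46. A block by library number gave -4.24 for Psat0s301g0160 and 1.33 for Psat0s116g0200. Control replicate 1 and CO8-DA replicate 3 share their number with no library, so they add nothing to that contrast. With 1 library left out the values of these loci lay between -7.26 and -3.69 and between 1.32 and 1.59. Joining Psat0s116g0200 with Psat0s116g0240, chosen after seeing the data, gave 0.79. DESeq2 called 196 loci lower, among them 1 other expansin, 6 pectin loci, 1 glucan locus and 5 root hair loci. For these listed loci the DESeq2 calls restate their choice from the study's table. With no filter 4 pectin loci were called lower, and with no fold change threshold 256 loci were. With 1 library left out, 371 to 943 loci were called, 338 to 778 higher and 33 to 165 lower. Of the other expansins 0 to 3 were then called higher and 0 to 1 lower. Of the pectin loci 2 to 3 were higher and 0 to 4 lower, of the glucan loci 2 to 5 higher and 0 lower, and of the root hair loci 5 to 9 higher and 1 to 3 lower. The neighbours Psat0s116g0160 (-0.10 to 0.061) and Psat0s116g0280 (-0.23 to 0.091) changed sign near 0. Causes were not tested. At 1 to 2 counts in a library, depth limits the size of the fall of Psat0s301g0160.

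Titles number the libraries of both groups 1 to 3, and nothing says that a number marks a shared batch. Deviations from the group means of libraries with the same number correlated at 0.23, 0.04 and 0.15. Libraries with unlike numbers were not compared, so these values cannot decide on pairing. The numbers were not taken as pairs, because no label gives them as such. A replicate block by title number gave -4.37 for Psat0s301g0160 and 1.43 for Psat0s116g0200, and called 2 pectin loci lower. A block by the number in the library name called 1094 loci, 888 higher and 206 lower, with 3 other expansins higher and 3 pectin loci lower. Only numbers 3 and 4 occur in both groups there, so control replicate 1 and CO8-DA replicate 3 add nothing to that contrast. Deviations of the libraries that share these numbers correlated at -0.12 and 0.04, which cannot decide on pairing either. These numbers were also not taken as pairs.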

Other observations

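Psat0s116g0200 and Psat0s116g0240 are not the only neighbours that divide reads. Among the tested loci, 316 adjacent pairs had estimates that were not whole and that added up to whole numbers (within 0.02) in all 6 libraries. In 34 of these pairs at least 1 locus was called, and in 15 both were. Of all tested loci taken singly, 3.13% were called, 2.63% higher and 0.493% lower. Adjacent pairs that do not divide reads were not counted, so whether these numbers are unusual was not tested. Of the 15 pairs with both loci called, 14 were called in the same direction and 1 in opposite directions, namely Psat5g291720, called higher, and Psat5g291760, called lower. Psat0s116g0240 is not among the 316 pairs, because it did not pass the filter on low counts. What share of such calls changes when the pairs are joined was not tested.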
